A study of Saccharomyces cerevisiae with 9 samples.

Results

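The genes described here are 32 budding yeast genes of the RNA polymerase machinery, taken by name from the 5449 genes that the arrays measured. Of these, 31 code for subunits: 7 belong to polymerase I only, 7 to polymerase II only, 10 to polymerase III only, 2 to polymerases I and III, and 5 to all 3 enzymes. The remaining gene, RRN6, codes for no subunit but for part of the core factor that brings polymerase I to its promoter, and it is counted apart. Each of the 32 genes had a single probe set, and all 32 were among the 4087 genes tested. The rule that lists them names the genes and uses no signal, although it was written with earlier results of these data known.

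Transcripts were measured in 9 cultures of strain JPY12, with 1 one-colour Affymetrix array per culture. Every strain, controls included, expressed histone H3 from the plasmid pEMH7. That H3 held lysine at position 42 in the 3 wild-type cultures. In the mutants, with 2 cultures each, this lysine was changed to alanine in K42A, to leucine in K42L and to glutamine in K42Q. Cultures grew in the rich medium YPD to log phase. The labels call the arrays of a mutant biological replicates and say no more about their origin, so each p-value measures only the spread between these cultures. The series title presents K42 as a methylated residue and a gate on transcription, and each mutant was compared with wild type to see how transcript levels differ without the lysine.

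RNA polymerase I makes the large ribosomal RNA precursor, polymerase II makes messenger RNAs, and polymerase III makes transfer RNAs and 5S ribosomal RNA. Each enzyme has a pair of large subunits that form the active centre, an alpha-like pair that starts assembly, a stalk, and a zinc-ribbon subunit, while a set of small subunits is common to all. In yeast, transcripts for polymerase I and III subunits are usually grouped with the ribosome biogenesis genes, whose levels follow growth.

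The deposited values are linear signals scaled by the authors' software to a common mean on each array (trimmed mean 150.1), so a difference is relative to the other transcripts of the same culture. In such bulk RNA, fewer cells with a transcript and less transcript per cell cannot be told apart. The 32 genes had median signals of 381.45 to 463.45 per array, against a 95th percentile of background probe sets of 4.4 to 9.6. By background, and with no word of it in the labels, the arrays formed 2 sets: a low set (median 1.0 to 1.3) of wild-type replicate 1 with all K42L and K42Q arrays, and a high set (median 2.2 to 2.7) of both K42A arrays with the other wild-type arrays. Spike-in controls had a geometric mean signal of 347 to 397 in the low set and 176 to 216 in the high set. The 6 genes specific to a cells summed to signals of 6071, 5005 and 5113 in wild type, 3787 and 3629 in K42A, 5703 and 5374 in K42L, and 3757 and 4342 in K42Q. This sum was lower on all K42A and K42Q arrays than on any wild-type array, as were STE2, MFA2, BAR1 and STE6. ASG7 went the other way in K42A, at 194.3 and 218.2 against 131.3, 93.3 and 91.2 in wild type, and was at 112.3 and 116.4 in K42Q. MFA1 was lower in K42A, but at 622.5 and 739.8 in K42Q it lay among the wild-type signals of 842.7, 451.5 and 540.3. The 4 genes specific to alpha cells summed to 170, 212.3 and 198.6 in wild type, 335.5 and 369.1 in K42A, 153 and 157.8 in K42L, and 283 and 257 in K42Q, with the defining alpha-factor gene MF(ALPHA)1 between 4.8 and 16.1 throughout. The part of either list in the results below was not tested. Signals follow in replicate order, differences are on the log2 scale with their standard error (SE), and a gene was called at a limma adjusted p under 0.05 over all 4087 genes. Levels were not compared between genes, since probe sets differ in their response.

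In K42A, transcripts of many polymerase subunits were lower than in wild type. Of the 31 subunit genes 18 fell, 0 rose and 13 did not pass limma's test, against 19.7% of all tested genes called lower and 22.6% called higher. The median difference of the subunit genes was -0.24, against -0.01 for all genes. The largest fall was that of RPC53, whose level fell by 31.4%. By class, 6 of 7 polymerase I genes, 5 of 7 shared genes, 4 of 10 polymerase III genes and 3 of 7 polymerase II genes fell, with median differences of -0.26, -0.33, -0.27 and -0.17. These classes were not tested against each other.

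Polymerase I genes are described first. RPA190, which codes for the largest subunit, had signals of 1069.5, 906.4 and 962 in wild type, 775.8 and 731.7 in K42A, 1108 and 1228.9 in K42L, and 810 and 744.1 in K42Q. Both K42A arrays and both K42Q arrays lay below every wild-type array, and both K42L arrays lay above. In K42A it fell by 0.37 ± 0.09 (SE, n = 2 against 3; limma adjusted p = 0.00866). RPA135, which codes for the second-largest subunit, had signals of 1465.9, 1416.5 and 1489.3 in wild type, 1209.3 and 1225.3 in K42A, 1535.6 and 1442 in K42L, and 1080.9 and 1145.8 in K42Q. K42A and K42Q again lay below all wild-type arrays, while K42L overlapped them. The K42A difference of RPA135 was -0.26 ± 0.07 (limma adjusted p = 0.0142).

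RPA49 and RPA34 code for a pair of subunits related to the polymerase II factor TFIIF. RPA49 had signals of 443.2, 578.4 and 581 in wild type, 415.2 and 423.8 in K42A, 532.8 and 551.7 in K42L, and 383 and 426.5 in K42Q. Its wild-type arrays were themselves apart, with replicate 1 lower by 0.39 than the mean of replicates 2 and 3. RPA49 fell by 0.34 ± 0.11 in K42A (limma adjusted p = 0.0394), and by 0.47 when K42A was set against wild-type replicates 2 and 3 alone. Its partner RPA34 fell by 0.26 ± 0.07. The stalk genes fell too, RPA43, whose product contacts the initiation factor Rrn3, by 0.34 ± 0.06 (limma adjusted p = 0.00277) and RPA14 by 0.24 ± 0.08. RPA12, which codes for the zinc-ribbon subunit that supports RNA cleavage, was the polymerase I gene that did not pass: it had signals of 557, 690.4 and 666.3 in wild type, 606.2 and 624.7 in K42A, 575.4 and 549.6 in K42L, and 590.5 and 565.6 in K42Q. All 3 mutants overlapped wild type for RPA12, and its K42A difference was -0.05 ± 0.09. In the R64 assembly RPA190 and RPA43 are neighbours on chromosome XV with 0 genes between them.

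**Figure D1:**
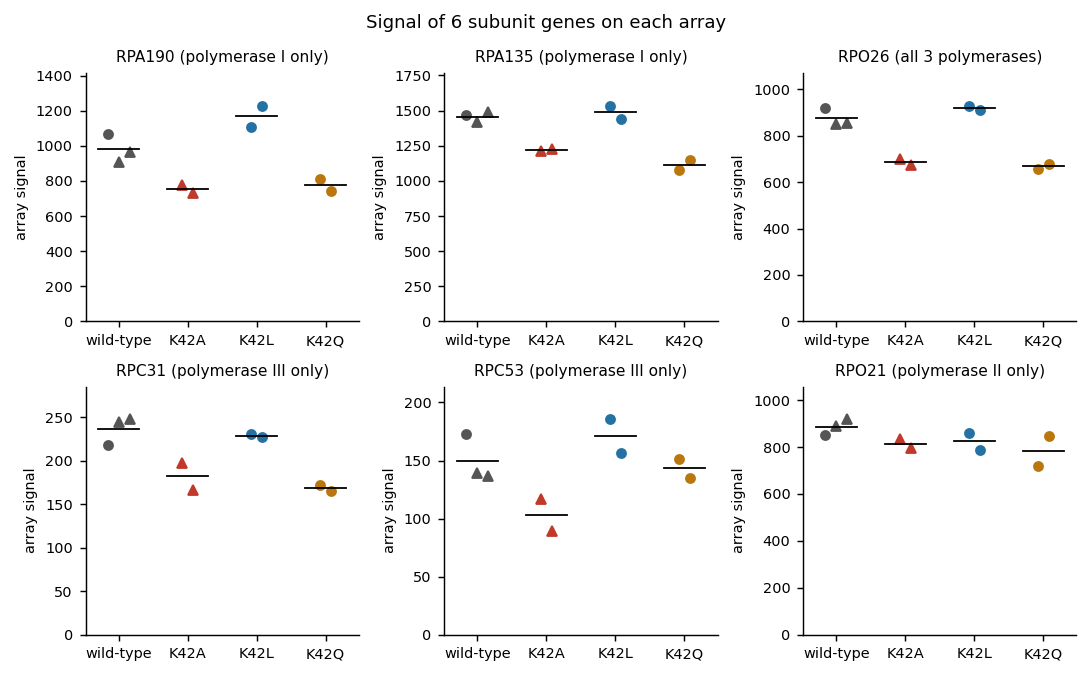
Signal of 6 subunit genes on each array by strain, on linear axes from 0, with circles for arrays of low background, triangles for arrays of high background and lines at the group means. RPA190, RPA135, RPO26 and RPC31 lie lower on all K42A and K42Q arrays than on any wild-type array, RPC53 does so in K42A, and for RPO21 the K42Q arrays spread from 720 to 846.3.

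Of the 7 shared subunit genes, 5 fell in K42A. RPC40 and RPC19, the alpha-like pair of polymerases I and III, both fell in K42A. RPC40 had signals of 701.3, 814 and 735.6 in wild type, 522.9 and 654.2 in K42A, 796.4 and 842.3 in K42L, and 644.5 and 591.3 in K42Q. The K42A arrays were far apart but both below wild type, and the difference was -0.36 ± 0.10 (limma adjusted p = 0.0217). RPC19 fell by 0.20 ± 0.06, with both arrays at 664.4 and 665 against 716.4 to 791.3 in wild type.

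Of the 5 genes common to all polymerases, 3 fell in K42A. RPB5, whose product forms part of the jaw that grips the entering DNA, had signals of 806.1, 723.9 and 792.4 in wild type, 631.8 and 572.6 in K42A, 847.4 and 779.6 in K42L, and 671.8 and 755.8 in K42Q. Only the K42A arrays lay wholly below wild type, by 0.36 ± 0.08 (limma adjusted p = 0.00811). RPO26, which codes for the subunit also called Rpb6, had signals of 920.3, 850.2 and 855.5 in wild type, 699.8 and 675.2 in K42A, 929.1 and 909.4 in K42L, and 656.5 and 678 in K42Q. Here K42A and K42Q were both clear of wild type, and the K42A difference was -0.35 ± 0.06 (limma adjusted p = 0.00248). RPB8 fell by 0.33 ± 0.07, to 1043.5 and 1083.6 from 1269 to 1376.9. The genes of the small zinc-binding subunits RPB10 and RPC10 did not pass, at -0.19 ± 0.10 and -0.15 ± 0.08, and their K42A arrays overlapped wild type.

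Among the 10 genes of polymerase III alone, RPC53, RPC31 and both stalk genes fell in K42A, and the other 6, those of the active centre included, did not pass. RPO31, for the largest subunit, had signals of 397.4, 453.9 and 486.2 in wild type, 424.1 and 436.1 in K42A, 411.9 and 421.9 in K42L, and 360.3 and 368.4 in K42Q. RET1, for the second-largest subunit, had 651, 615.7 and 600.6 in wild type, 580.2 and 619.2 in K42A, 634.8 and 617.3 in K42L, and 558 and 549.1 in K42Q. For both genes K42A overlapped wild type, with differences of -0.05 ± 0.08 for RPO31 and -0.05 ± 0.06 for RET1, and K42Q lay below every wild-type array.

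RPC53 and RPC37 code for the TFIIF-like pair of polymerase III, which takes part in termination and reinitiation. RPC53 had signals of 172.7, 139.5 and 136.9 in wild type, 117 and 89 in K42A, 185.8 and 156.1 in K42L, and 151.3 and 135 in K42Q. It was low on both K42A arrays, a fall of 0.54 ± 0.15 (limma adjusted p = 0.0166), although those arrays were apart from each other. RPC37 did not pass at -0.17 ± 0.07, but its K42A arrays, at 202.7 and 214.3, lay below the 231.5 to 238.5 of wild type.

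Of the trimer that contacts the initiation factor TFIIIB, 1 of 3 genes fell. RPC31 had signals of 218.2, 244.7 and 248.3 in wild type, 197.6 and 166.6 in K42A, 230.4 and 227.5 in K42L, and 171.8 and 165.7 in K42Q. All K42A and K42Q arrays were below wild type, and the K42A difference was -0.38 ± 0.09 (limma adjusted p = 0.0106). RPC34 had signals of 219.5, 183.2 and 180.3 in wild type, 169.9 and 160.6 in K42A, 224.4 and 236.1 in K42L, and 207.9 and 209.9 in K42Q. Its K42A arrays were below wild type and its K42L arrays above, yet neither difference passed, at -0.23 ± 0.10 and 0.25 ± 0.10. The trimer's RPC82 was at -0.20 ± 0.08 in K42A and did not pass.

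Both stalk genes of polymerase III fell in K42A. RPC25 had signals of 149, 185.9 and 182.9 in wild type, 120.1 and 125.9 in K42A, 147.4 and 149.6 in K42L, and 165 and 146.5 in K42Q. It was lowest in K42A, by 0.48 ± 0.11 against wild type (limma adjusted p = 0.00735), and by 0.58 against wild-type replicates 2 and 3 alone. RPC17 fell by 0.31 ± 0.10, to 112.2 and 108.1 from 125 to 145.1. RPC11, the zinc-ribbon subunit gene needed for RNA cleavage and termination, was the most variable of the 31 between replicates (SD 0.23). RPC11 had signals of 295.5, 430 and 410.6 in wild type, 258.5 and 342.4 in K42A, 325.9 and 334.2 in K42L, and 276.5 and 268.2 in K42Q. Wild-type replicate 1 lay within the range of the mutants, K42A overlapped wild type, and the difference of -0.33 ± 0.16 did not pass.

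Polymerase II genes had the class median nearest 0 in K42A, and 2 of the 7 had positive differences. With quantile scaling the shared genes had it instead, at -0.15 against -0.17 for polymerase II genes. RPO21, which codes for the largest subunit with its long C-terminal repeat tail, had signals of 851.7, 890.8 and 919.8 in wild type, 833.5 and 795.8 in K42A, 860.7 and 787.2 in K42L, and 720 and 846.3 in K42Q. Its K42A arrays were below wild type by a small margin, and the difference of -0.12 ± 0.08 did not pass. RPB2, for the second-largest subunit, had signals of 705.2, 704.5 and 749 in wild type, 578.5 and 642.2 in K42A, 718.8 and 689.2 in K42L, and 637.4 and 675.6 in K42Q. RPB2 fell by 0.24 ± 0.07 (limma adjusted p = 0.0224), with both K42A arrays below wild type.

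RPB9, for the zinc-ribbon subunit that affects fidelity, had signals of 232.1, 250.6 and 254 in wild type, 208.5 and 199.3 in K42A, 242.8 and 241.4 in K42L, and 228.5 and 225.5 in K42Q. Its K42A arrays were the lowest, and it fell by 0.27 ± 0.07 (limma adjusted p = 0.0149). The stalk genes parted: RPB7 fell by 0.24 ± 0.08, while RPB4 was at 0.15 ± 0.07 and did not pass, with K42A arrays of 448 and 443.8 above the 389.1 to 407.3 of wild type. So did the alpha-like genes, RPB3 at -0.17 ± 0.08 and RPB11 at 0.13 ± 0.12, neither of which passed. RPB11 differed between the wild-type arrays, at 367.7 on replicate 1 against 279.6 and 278.2. With the array set as a block it was higher in K42A by 0.27 ± 0.06 (limma adjusted p = 0.00435), the only subunit gene that rose there.

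RRN6 is described without a test. Its signals were 70.5, 86 and 85.4 in wild type, 121.2 and 118.1 in K42A, 77.2 and 86.7 in K42L, and 105.5 and 88 in K42Q. K42A and K42Q lay above all wild-type arrays, and K42L overlapped them. Against wild type the log2 difference was 0.58 in K42A, 0.03 in K42L and 0.26 in K42Q. The wild-type and K42L signals lie below 87.0, the mean signal a gene had to reach, so RRN6 entered the model only through K42A and K42Q, and its calls are not used.

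**Figure D2:**
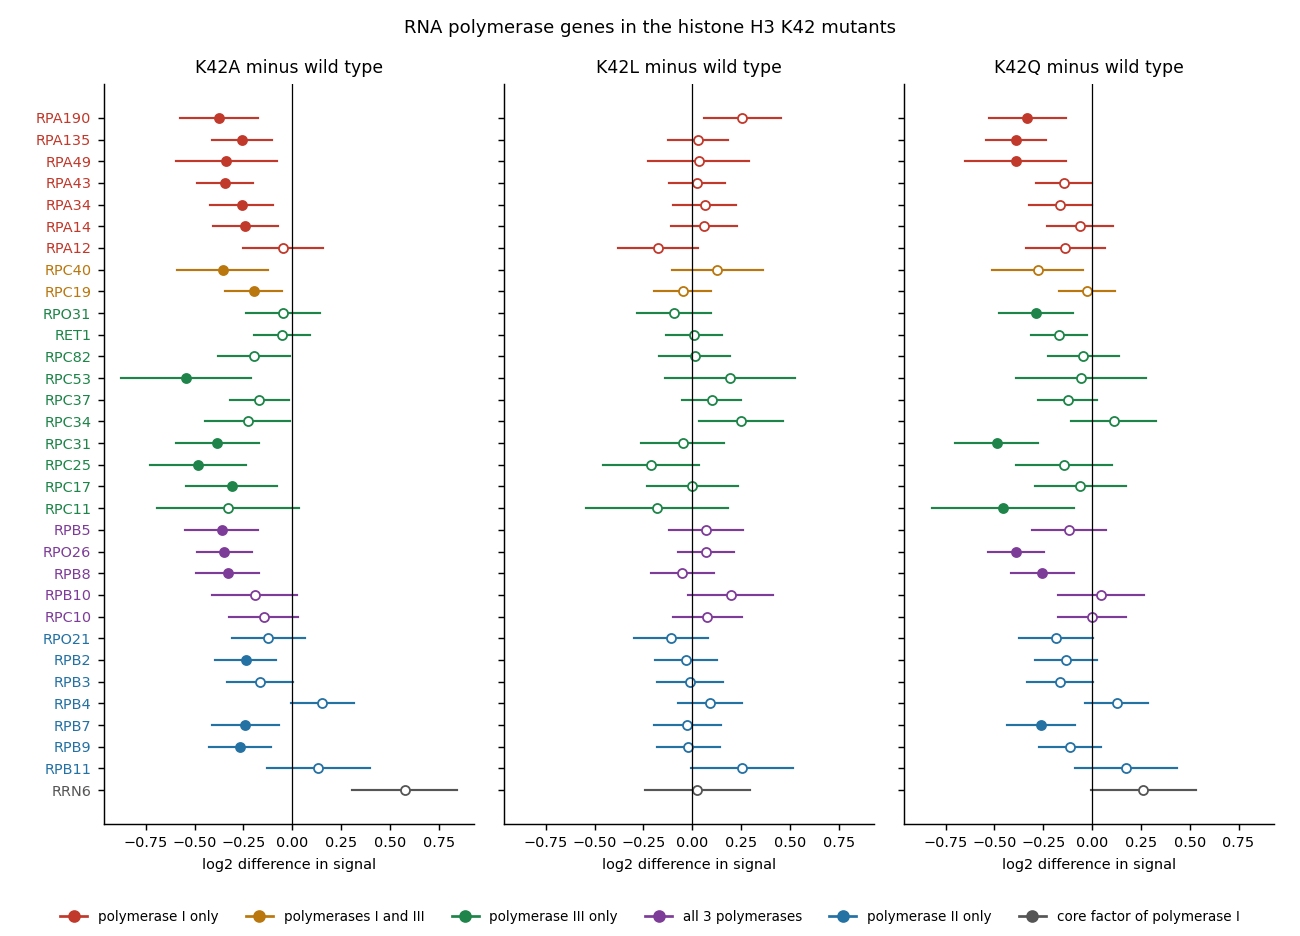
Difference in log2 signal between each mutant and wild type for the 32 genes, coloured by the polymerase they belong to, with 95% confidence intervals from the linear model and filled points for genes called at an adjusted p under 0.05. RRN6, at the bottom, is drawn open throughout because its calls are not used. In K42A 18 subunit points are filled left of 0, in K42Q 9, and in K42L none.

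The K42A falls were about as large with the array set as a block (22 subunit genes lower, median -0.28, with 27.6% of all genes lower) as without it. The calls depended on how the arrays were scaled: with spike-in scaling within the array set, which moved the median of all genes to 0.17, 0 subunit genes were lower and 1, RPB4, was higher (0.34). This scaling shifts all genes of an array alike, and the subunit median, then -0.06, still lay below that of all genes. With that scaling 3.52% of all genes were lower and 32.5% higher. With 1 array left out, the subunit genes called lower numbered 22 without wild-type replicate 1, 13 without replicate 2 and 10 without replicate 3, where 27.6%, 18.1% and 15.2% of all genes were lower. They numbered 8 without K42A replicate 1 and 6 without K42A replicate 2, where 11.9% and 8.17% of all genes were lower. RPA43, RPO26 and RPB8 were called lower whichever of the 5 arrays was left out. Bright genes as a whole were lower in K42A, by a split into 5 equal bins of mean signal that was chosen after the data were seen. In the brightest bin the median of all genes was -0.25 and 42.2% were called lower, and the 11 subunit genes there had a median of -0.26 with 9 lower. In the next bin the median of all genes was -0.05 with 24.6% lower, and the 12 subunit genes had a median of -0.16 with 4 lower. The 3 bins below held 8 subunit genes, of which 5 were lower, where 15.2%, 9.55% and 7.21% of all genes were, from the brightest of these bins down.

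In K42Q, 9 subunit genes fell, 0 rose and 22 did not pass, against 18.2% of all genes called lower and 21.4% called higher. The median difference was -0.14, against 0.00 for all genes. The genes that fell were RPA190, RPA135 and RPA49 of polymerase I, RPO31, RPC31 and RPC11 of polymerase III, the shared RPO26 and RPB8, and RPB7 of the polymerase II stalk. By class this was 3 of 7, 3 of 10, 2 of 7 and 1 of 7, with medians of -0.16, -0.13, -0.12 and -0.13. RPC31 changed most, by -0.49 ± 0.09 (limma adjusted p = 0.00322), and RPO26 had the lowest adjusted p at 0.00142 with a difference of -0.39 ± 0.06. RPA135 also fell by 0.39 ± 0.07 (limma adjusted p = 0.00206) and RPA190 by 0.33 ± 0.09 (limma adjusted p = 0.0152).

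The other K42Q calls rested more on which wild-type arrays were used. RPC11 was at -0.46 ± 0.16 (limma adjusted p = 0.049), but at -0.12 with the array set as a block, where the value rests on wild-type replicate 1 alone. RPA49 went likewise from -0.39 ± 0.11 to -0.13, RPO31 from -0.29 ± 0.08 to -0.13, RPB7 from -0.26 ± 0.08 to -0.13 and RPB8 from -0.25 ± 0.07 to -0.18, and none of these passed there. RPA190, RPA135, RPO26 and RPC31 kept their calls with the block, at -0.46, -0.40, -0.46 and -0.37, and RET1 fell in addition, at -0.23 (limma adjusted p = 0.0183). That made 5 of 31 lower (16.1%), where 20.6% of all genes were lower with the block, so the share was no longer above that of all genes. Leaving out wild-type replicate 1 gave 16 lower and 2 higher (RPB11 and RPC34), where 27.8% of all genes were lower and 29.0% higher. That fit sets K42Q against wild-type arrays of the other array set alone, so strain and array set cannot be told apart. Leaving out wild-type replicate 2 or 3 gave 4 lower each, where 14.2% and 13.4% of all genes were. The share of subunit genes was not above that of all genes there either. Leaving out either K42Q array leaves 1 array for K42Q, and fewer genes were called lower, both among subunit genes and over all genes. With spike-in scaling within the array set, which moved the median of all genes to 0.18, 33.4% of all genes were higher and 5.31% lower. Of the subunit genes RPC31 was then lower, RPB4 and RPB11 were higher, and the medians of all 4 classes were above 0. The median of the subunit genes was then 0.04, which still lay below that of all genes. RPC31 was called lower in all 13 alternative settings and with any of the 5 arrays left out. In the brightest bin the median of all genes in K42Q was -0.11 with 29.6% lower, and the 11 subunit genes there had a median of -0.18 with 4 lower. In the next bin the median of all genes was -0.09 with 28.8% lower, and the 12 subunit genes had a median of -0.15 with 4 lower. In both bins the share of subunit genes lower was only a little above that of all genes. In the third bin 1 of 4 subunit genes was lower, where 16.4% of all genes were, and in the dimmest bins 0 were.

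**Figure D3:**
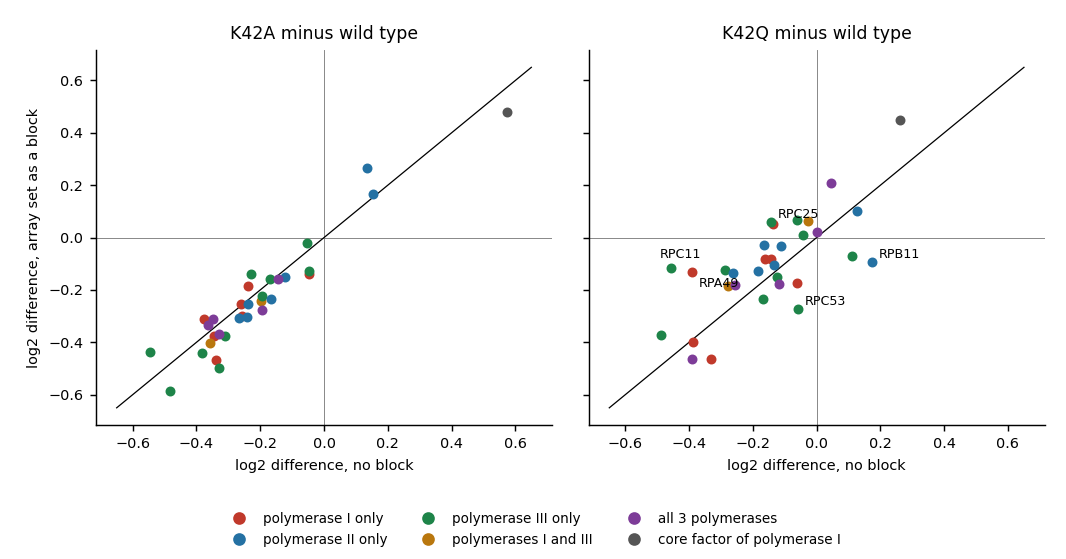
Log2 difference from wild type for the 32 genes without (horizontal) and with (vertical) the array set as a block, with a line of equal values and colours by polymerase. K42A points stay near the line, while in K42Q RPC11, RPA49, RPC25, RPB11 and RPC53 lie over 0.2 from it.

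In K42L, 0 of 31 subunit genes passed the test in either direction by limma, where 0.318% of all genes were higher and 0.343% lower. At an unadjusted p under 0.05, RPA190 and RPC34 were higher, but the share of all genes at that level was not counted. Their differences were 0.26 ± 0.09 for RPA190 (limma adjusted p = 0.196) and 0.25 ± 0.10 for RPC34 (limma adjusted p = 0.232). The median over the subunit genes was 0.02, the class medians ran from -0.02 for polymerase II to 0.07 for the shared genes, and 27 of the 31 genes overlapped wild type. The other 4 lay above every wild-type array. Over all 4087 genes tested, 746 lay above every wild-type array and 574 lay below. Intervals still allow changes of some size: that of RPA190 ran from 0.06 to 0.45 and that of RPC11 from -0.54 to 0.19. Without wild-type replicate 1, RPA190, RPC34 and RPB11 were called higher and RPA12, RPO31, RPC25 and RPC11 lower. These 3 and 4 of 31 are below the shares of all genes there, where 16.9% were higher and 16.5% lower. Leaving out that array moved the K42L calls over all genes from 13 higher and 14 lower to 689 and 675. As the other wild-type arrays lie in the other array set, strain and array set cannot then be told apart. With the array set as a block, where the value rests on that array alone, 0 passed.

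**Figure D4:**
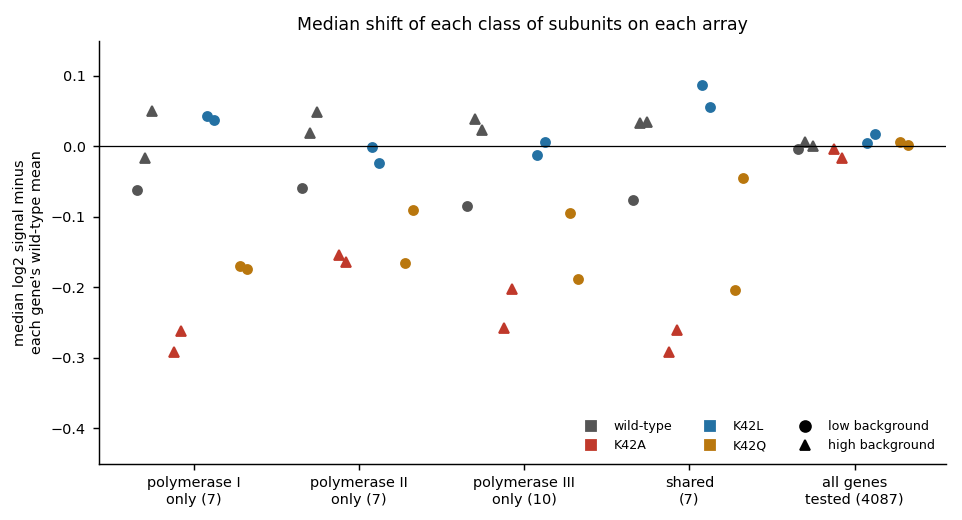
Median, over the genes of each class, of log2 signal minus the gene's wild-type mean, for each array, with circles for low and triangles for high background. Both K42A arrays lie below all wild-type arrays in every class of subunits while the median of all genes stays near 0, and K42L lies near wild type.

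The mutants were also compared directly. Against K42L, K42A had 17 subunit genes lower and 0 higher, where 21.9% of all genes were lower and 22.1% higher. The largest difference was RPC53 at -0.74 ± 0.16 (limma adjusted p = 0.00664), followed by RPA190 at -0.63 ± 0.10 (limma adjusted p = 0.00118). RPC40 at -0.49 ± 0.11, RPC34 at -0.48 ± 0.11, RPB5 at -0.43 ± 0.09 and RPO26 at -0.42 ± 0.07 came next. The 17 held 6 of 7 polymerase I genes, 5 of 7 shared, 5 of 10 of polymerase III and, of polymerase II, RPB9. K42A and K42L lie in different array sets, so the block compares them only through the wild-type arrays. It gave 16 subunit genes lower, where 15.2% of all genes were. Of the 17, RPC53 (-0.42), RPB5 (-0.34), RPA135 (-0.28), RPC37 (-0.23), RPC34 (-0.21) and RPA14 (-0.13) did not pass there, and RPC19, RPC25, RPC11, RPB3 and RPB7 passed in addition. Spike-in scaling within the array set left 4 lower, where 7.22% of all genes were. This scaling evens out the spike-ins among arrays of the same set, and so not between K42A and K42L. Leaving out any 1 K42A or K42L array leaves 1 array in that group. Fewer genes were then called lower, both among subunit genes and over all genes.

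K42L and K42Q lie in the same array set. Against K42Q, K42L had 7 subunit genes higher and 0 lower, where 14.8% of all genes were higher and 16.7% lower. RPA190 led at 0.59 ± 0.10 (limma adjusted p = 0.00203), with 1108 and 1228.9 against 810 and 744.1. RPO26 followed at 0.46 ± 0.07 (limma adjusted p = 0.0013), RPC31 at 0.44 ± 0.10, RPA49 at 0.42 ± 0.13, RPA135 at 0.42 ± 0.07, RPC40 at 0.41 ± 0.11 and RPC37 at 0.22 ± 0.07. These were 3 genes of polymerase I, 2 of polymerase III and 2 shared, with 0 of polymerase II. With the array set as a block 15 were higher, where 24.9% of all genes were. With spike-in scaling within the set 2 were higher, where 4.80% of all genes were. With any 1 of the 4 arrays left out, which leaves 1 array in a group, fewer were called higher, both among subunit genes and over all genes.

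K42A and K42Q did not differ in any subunit gene at the threshold (0 of 31 by limma), where 8.15% of all genes were lower in K42A and 9.96% higher. At an unadjusted p under 0.05, 6 were lower in K42A and 1 was higher, the widest differences being RPC53 at -0.49 ± 0.16 (limma adjusted p = 0.0657), RPC34 at -0.34 ± 0.11 (limma adjusted p = 0.0528) and RPC25 at -0.34 ± 0.12 (limma adjusted p = 0.076). The share of all genes at the unadjusted level was not counted, so these counts are not set against it. A miss of the threshold does not show equal levels. With the array set as a block, which rests on wild-type arrays to bridge the sets, RPA49, RPA43, RPC19, RPC25 and RPB10 were lower in K42A and RPB11 was higher, where 9.91% of all genes were lower and 8.74% higher.

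Subunits that hold the same place in the 3 enzymes are set side by side here for K42A, with no test of the differences between them. Of the largest subunits, RPA190 of polymerase I was at -0.37, RPO21 of polymerase II at -0.12 and RPO31 of polymerase III at -0.05. Of the second-largest, RPA135 was at -0.26, RPB2 at -0.24 and RET1 at -0.05. The zinc-ribbon genes were at -0.05 for RPA12, -0.27 for RPB9 and -0.33 for RPC11. By value alone, polymerase I was lowest for both large subunits and polymerase III for the zinc ribbon. RPA135 and RPB2 were nearly equal, with an SE of 0.07 each, and RPC11, with an SE of 0.16, did not pass. Of the stalk genes that contact nascent RNA, RPA43 was at -0.34, RPB7 at -0.24 and RPC25 at -0.48, while their partners RPA14, RPB4 and RPC17 were at -0.24, 0.15 and -0.31. For the alpha-like pair, RPC40 and RPC19 of polymerases I and III were at -0.36 and -0.20, against -0.17 and 0.13 for RPB3 and RPB11 of polymerase II. In K42Q the same positions gave -0.33, -0.18 and -0.29 for the largest subunits, and -0.39, -0.13 and -0.17 for the second-largest. K42A and K42Q were each set against the same 3 wild-type arrays.

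Factors that work with the polymerases were described from lists of their own, 50 tested genes in all. Of these, 9 rose and 6 fell in K42A, where 22.6% of all genes rose and 19.7% fell, and 5 rose and 7 fell in K42Q, where 21.4% rose and 18.2% fell. As shares of the 50 all 4 counts are below those of all genes, so the calls below describe single genes and not the lists. Of 10 polymerase III factors, 4 rose and 0 fell in K42A: TFC1 by 0.39 ± 0.11 and TFC3 by 0.34 ± 0.09, both of the DNA-binding factor TFIIIC, BRF1 of TFIIIB by 0.22 ± 0.08, and MAF1, a repressor of polymerase III, by 0.21 ± 0.08. In K42Q, BDP1 of TFIIIB rose by 0.42 ± 0.10 and MAF1 by 0.40 ± 0.08, and 0 fell. MAF1 had signals of 115.2, 116 and 111.3 in wild type, 136.7 and 127.6 in K42A, 119.2 and 119.7 in K42L, and 151.2 and 150.2 in K42Q. It was above every wild-type array in all 3 mutants, with K42Q the highest, and its K42L difference of 0.07 ± 0.08 did not pass.

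Of 8 polymerase I factors besides RRN6, 4 were bright enough to test. HMO1, an HMG-box protein of ribosomal DNA and ribosomal protein genes, fell in K42A by 0.44 ± 0.06 (limma adjusted p = 0.000623) and in K42Q by 0.26 ± 0.06. Its signals were 933.4, 948.8 and 941.9 in wild type, 700.4 and 687.6 in K42A, 844.9 and 882.3 in K42L, and 761.1 and 815.4 in K42Q, so that all mutant arrays lay below wild type. RRN11, of the same core factor as RRN6, rose by 0.50 ± 0.10 in K42Q (limma adjusted p = 0.00419) and was at 0.23 ± 0.10 in K42A, which did not pass.

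Among 18 general factors of polymerase II, 3 rose and 2 fell in K42A. SSL2, the TFIIH translocase, rose by 0.61 ± 0.12, and TFG1 and TFG2 of TFIIF rose by 0.35 ± 0.08 and 0.25 ± 0.08. TFB2 of TFIIH fell by 0.45 ± 0.10 and TFA2 of TFIIE by 0.42 ± 0.07. In K42Q, TFG1 rose by 0.30 ± 0.08, while TFB2 fell by 0.62 ± 0.10, TFB4 of TFIIH fell by 0.38 ± 0.12 and TAF14 fell by 0.20 ± 0.07. Of 12 tested elongation factors, SPT4 fell by 0.44 ± 0.09 and SPT6 by 0.19 ± 0.06 in K42A. In K42Q both fell again, by 0.32 and 0.31, CDC73 of the Paf1 complex fell by 0.25 ± 0.08, and DST1, the RNA cleavage factor TFIIS, rose by 0.51 ± 0.07 (limma adjusted p = 0.000629). Of 6 tested genes for polymerase assembly and import, RTP1 rose by 0.57 ± 0.18, IWR1 rose by 0.34 ± 0.11 and GPN3 fell by 0.33 ± 0.08 in K42A, and 0 changed in K42Q. In K42L, 0 of the 50 tested genes of these lists passed by limma. At an unadjusted p under 0.05, 10 were higher and 2 lower. The share of all genes at that level was not counted, so these counts say nothing about the lists.

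With spike-in scaling within the array set most falls of these factor genes were lost: in K42A 17 were higher and 1, HMO1, was lower, and in K42Q 15 were higher and 1, TFB2, was lower. The shares of all genes higher there were 32.5% in K42A and 33.4% in K42Q, close to those of the factor genes. Fitted with the array set as a block, K42A had 13 higher and 10 lower, among them all 15 genes called without it, where 27.2% of all genes were higher and 27.6% lower. K42Q had 5 higher and 4 lower with the block, where 22.6% and 20.6% of all genes were: RRN11, MAF1, TFG1, DST1 and RTP1 rose and HMO1, TFB2, SPT6 and ELF1 fell, while BDP1, TAF14, TFB4, SPT4 and CDC73 did not pass.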

How the data were processed

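The authors deposited 1 signal intensity per probe set and array, made with GCOS 1.4 and MAS5 per the submitters' processing notes. RNA was isolated by hot phenol and RNeasy columns and amplified in 1 round, per the labels' protocols. The genome build behind the probe annotation is not given in the sources used here. Probe sets were named through the platform annotation and RefSeq (R64): 5498 of 10928 had 1 yeast gene, and the brightest stood for each gene. Signals were log2-transformed as deposited, after 126 zeros among 98352 values were replaced by 0.1. The lowest 25% of genes by mean log2 signal (below 87.0) were dropped, which left 4087. The 9 arrays entered 1 model with 4 group means in limma 3.58.1 (R 4.3.3), with an intensity trend and Benjamini-Hochberg adjustment over all genes. The model was tested on simulated data. The number of arrays limits the precision.

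Alternatives were other scalings, filters, fits, blocks and leaving out each array. Fits within the array set of K42L or K42Q hold wild-type replicate 1 alone, assumed to vary like the other arrays. Members and lists were chosen with earlier results of these data known. All 32 genes are named. Signals per array are given for genes called in any comparison that were among its 6 largest changes, and for the largest, second-largest and zinc-ribbon subunits. Up to 3 called genes with the largest change per list and mutant are named, and other genes after their values were seen.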

Additional observations from a re-analysis of the deposited data

Results flagged for a closer look

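A control probe set for the 3′ end of 25S ribosomal RNA, the main product of polymerase I, is outside the gene comparisons. It had signals of 252.3 on K42A replicate 1 and 558.3 on K42A replicate 2, against 89.7, 48.3 and 59.6 in wild type, 87.6 and 79.1 in K42L, and 105.1 and 98.9 in K42Q. Both K42A arrays lay above the controls and apart from each other. Labelling started from oligo-dT, so this signal does not measure ribosomal RNA content. The 3′ to 5′ signal ratio of ACT1 was 1.06 to 1.22 on all arrays. Groups of 2 or 3 arrays are too few for a test of single outlying arrays. Without wild-type replicate 1, K42L had 689 genes higher and 675 lower, against 13 and 14 with it. That array is the only wild-type array in the low-background set of K42L. Without it strain and array set cannot be told apart.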

How the results depend on the processing

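The 2 arrays per mutant limit every call. Unless named otherwise, counts are subunit genes called against wild type and medians are log2 differences of polymerase I, II, III and shared genes in that order. With quantile scaling the K42A medians of polymerase III and shared genes were -0.37 and -0.15, the K42L median of polymerase I genes was 0.070, and the K42Q medians were -0.12, -0.078, -0.22 and -0.018. K42A against K42Q then had 1 higher and 6 lower, where 13.1% and 13.3% of all genes were. RPA135 of K42A against K42L turned to 0.013. With median centring the K42A medians were -0.34, -0.25, -0.35 and -0.41. K42Q then had 14 lower, where 21.9% of all genes were, with a polymerase I median of -0.20. K42A against K42Q had 3 lower, where 10.1% of all genes were. With cyclic loess scaling the K42A medians of polymerase I, II and shared genes were -0.20, -0.11 and -0.11. K42Q had 1 higher and 3 lower, with medians of -0.086 and -0.065 for polymerases I and II and a shared median turned to 0.0019, and K42A against K42Q had 1 higher and 2 lower.

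With spike-in scaling within the array set, K42A had 1 higher and 0 lower, where 32.5% and 3.52% of all genes were. Its medians were -0.077, 0.015 (turned), -0.088 and -0.15. K42L medians of polymerases I and II were 0.084 and 0.032. K42Q had 2 higher and 1 lower, where 33.4% and 5.31% of all genes were, and its medians turned to 0.016, 0.046, 0.044 and 0.060. K42A against K42L had 4 lower, where 7.22% of all genes were, and K42L against K42Q had 2 higher, where 4.80% were. With the 50th percentile filter, which tests fewer genes, the K42A median of polymerase III genes was -0.20. K42A against K42Q had 1 lower, where 9.25% of all genes were. With the compared groups alone, which have fewer samples, K42A had 9 lower and K42Q 4, where 11.9% and 12.9% of all genes were. K42A against K42Q had 1 higher and 3 lower, where 16.1% and 15.6% of all genes were. K42L against K42Q had 15 higher, where 24.8% of all genes were. The cause of the other changes was not tested.

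With the replicate number as a block, K42A had 9 lower, where 13.3% of all genes were. K42Q had 5 lower, where 12.2% of all genes were, with a polymerase I median of -0.12. K42A against K42Q had 1 lower, where 5.68% of all genes were. Deviations of same-numbered arrays correlated at -0.30 to 0.18, so the numbers were not taken to pair the cultures. With the array set as a block, K42A had 1 higher, where 27.2% of all genes were, and polymerase I and II medians of -0.30 and -0.23. K42L medians of polymerases I, II and III were 0.085, 0.061 and 0.069. K42Q had 5 lower, where 20.6% of all genes were. K42A against K42Q had 1 higher and 5 lower, where 8.74% and 9.91% of all genes were, with RPA49 turned to -0.33 and RPB11 to 0.36. K42L against K42Q had 15 higher, where 24.9% of all genes were. Within the array set these medians were the same. K42A then had 1 higher and K42L against K42Q had 16 higher, where 26.1% and 24.9% of all genes were. K42A could not be set against K42L or K42Q there.

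With 1 wild-type array left out in turn, K42A had 0 to 1 higher and 10 to 22 lower. Of all genes 19.5% to 27.2% were then higher and 15.2% to 27.6% lower. K42L had 0 to 3 higher and 0 to 4 lower, where 0.0245% to 16.9% and 0.0489% to 16.5% of all genes were. K42Q had 0 to 2 higher and 4 to 16 lower, where 17.3% to 29.0% and 13.4% to 27.8% of all genes were. Leaving out a mutant array leaves 1 array in its group, so no counts are given here. With any 1 array of either group left out, the K42A medians were -0.30 to -0.26, -0.23 to -0.12, -0.30 to -0.20 and -0.31 to -0.26. The K42L median of polymerase II was -0.060 to 0.033. The K42Q medians of polymerase I and shared genes were -0.23 to -0.12 and -0.20 to -0.045. Over single genes, 2163 of 2408 values under other settings and 730 of 864 with an array left out kept their side of the threshold. Among values that were never called, 143 and 43 changed direction.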
